A study of Mus musculus with 4 samples.

Results

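The splicing factor genes described here were the GENCODE vM21 protein-coding genes on chromosomes 1 to 19 whose names start with Srsf, Snrp, Hnrnp, Sf3a, Sf3b or Prpf. The rule found 64 of 20807 protein-coding genes on these chromosomes. There were 11 Srsf, 12 Snrp, 19 Hnrnp, 3 Sf3a, 6 Sf3b and 13 Prpf genes, and no measured value was used to choose them. Accessible chromatin was profiled by ATACseq, in which the Tn5 transposase cuts open DNA, and the histone variant H2A.Z by ChIPseq on chromatin digested with micrococcal nuclease. Each assay had 1 WT liver library, from a mouse with the floxed Uhrf1-fl/fl alleles, and 1 Uhrf1hepKO liver library (Uhrf1-fl/fl;Alb:Cre), 4 libraries in all. Whether both assays of a genotype used the same mouse is not given in the sources used here. Alb:Cre was used to delete Uhrf1 in hepatocytes, and whether all other cells of the Uhrf1hepKO liver keep the gene cannot be told from these data. The mice were C57Bl/6 males of 8 to 12 weeks on a normal diet. Whole liver was used, so a change in the mix of cells and a change within cells cannot be told apart. With 1 library per group there was no replicate error, and no p-value is given. Intervals are Wilson 95% intervals for shares and exact Poisson 95% intervals for reads, and both cover counting error only.

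Introns are removed from transcripts by the spliceosome, which is built from small nuclear ribonucleoproteins (snRNPs). Snrp genes encode snRNP proteins, Sf3a and Sf3b genes encode the subunits of the U2 snRNP that bind around the branch point, and many Prpf genes encode proteins of the U4/U6.U5 particle. SR proteins (Srsf) and heterogeneous nuclear ribonucleoproteins (Hnrnp) bind nascent transcripts and influence which exons are kept. H2A.Z replaces H2A in nucleosomes that border the start sites of many expressed genes, and UHRF1 is required to copy DNA methylation when cells divide.

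The deposited lists held 10758 WT and 10972 Uhrf1hepKO ATACseq peaks, and 51702 WT and 47391 Uhrf1hepKO H2A.Z peaks. A peak was assigned to a gene when it overlapped by at least 1 bp the 5 kb before or the 5 kb after the transcription start site (TSS), which is the annotated 5′ end of the gene. Its fold is the reads over the background of its own library. Folds were not scaled between libraries, so a fold describes a peak within its own list, and a pair of folds, WT first, does not measure a change between genotypes. Presence in a list and percentile within a list are given beside folds for that reason. Reads are given to show counting error, and they were not scaled between libraries either. Depth was known only through the folds, whose even steps in the H2A.Z lists put the background at 3.10 reads per base (WT) and 3.30 (Uhrf1hepKO). For an absent peak, a signal was not detectable at this depth. Of 7 hepatocyte markers, only Alb (ATACseq in Uhrf1hepKO) and Ttr (H2A.Z in WT) had a peak, and 8 markers of other liver cells had 0 peaks in every list, so the peaks did not serve to check the cell type. Uhrf1 itself had 1 peak in each list, which does not report on the deleted part of the gene.

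Nearly all splicing factor genes carried H2A.Z at the TSS, and fewer had an ATACseq peak. In WT, 61 of 64 genes had an H2A.Z peak in the window (95.3%, interval 87.1 to 98.4%) against 54.4% of all protein-coding genes. In Uhrf1hepKO the count was also 61 of 64, against 52.6%. ATACseq peaks were found at 38 of 64 genes in WT (59.4%, interval 47.1 to 70.5%) against 31.4% of all protein-coding genes, and at 38 of 64 in Uhrf1hepKO against 29.0%. Splicing factor genes mostly start in CpG-rich sequence, with a median of 69.5 CpGs within 500 bp of the TSS compared with 43 for all protein-coding genes. A closer background is therefore the 10887 genes with at least 40 CpGs in that window, whose median is 69. Among these, 76.7% had WT and 74.5% had Uhrf1hepKO H2A.Z peaks, and 49.2% and 44.9% had ATACseq peaks. The H2A.Z share of the splicing factor genes stood above this background by more than its counting interval in both genotypes. The ATACseq interval included the CpG-rich background in WT. In Uhrf1hepKO it lay above that background by a small margin (lower end 47.1%, background 44.9%). Among the 41 genes with no other protein-coding TSS in the window, 23 had a Uhrf1hepKO ATACseq peak (56.1%), and no background was counted for such genes.

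**Figure D1:**
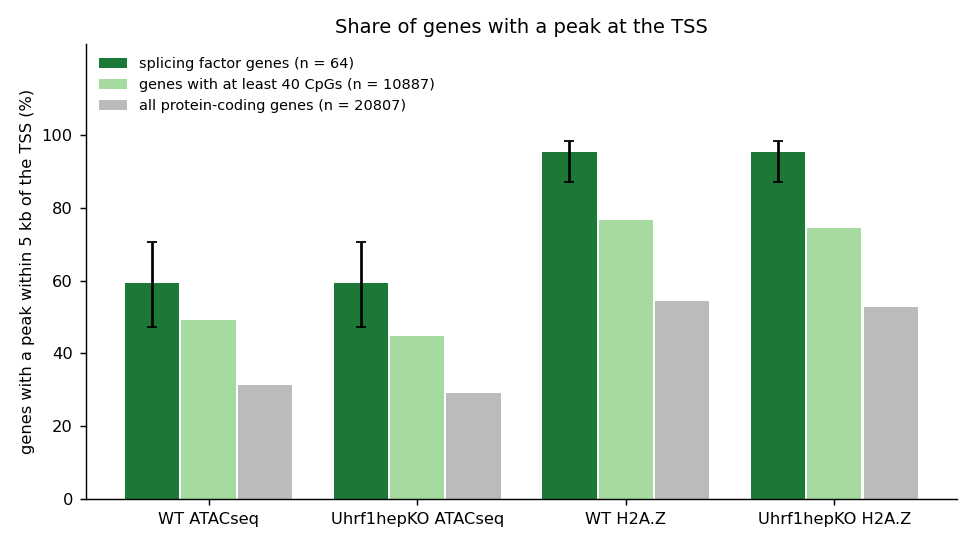
Share of genes (%) that had a peak within 5 kb in each of the 4 lists, for the 64 splicing factor genes (dark green, with Wilson 95% intervals), the 10887 genes with at least 40 CpGs (light green) and all 20807 protein-coding genes (grey). H2A.Z reached 95.3% of splicing factor genes in both genotypes, and ATACseq reached 59.4% in both.

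The sequences under some of these peaks are given first, since the values below refer back to them. Each is the longest stretch of the WT peak outside annotated exons, of at most 300 bases, in GRCm38 and on the strand of the gene. Capitals mark exact matches on either strand to the letters of promoter motifs that are counted further below. The Snrpa stretch (chr7:27196272-27196444, minus strand) lies under the ATACseq peak with the highest fold at any of these genes in both genotypes, and holds the CRE, E-box and TATA box letters. The Hnrnpc stretch (chr14:52104098-52104397, minus strand) comes from the next highest WT peak and holds the CCAAT box letters 3 times. In Hnrnpab (chr11:51606848-51606996, minus strand), the CCAAT letters lie ahead of a TATA box near the TSS. The Srsf7 stretch (chr17:80207308-80207459, minus strand) separates Srsf7 from its divergent neighbour Ttc39d and holds GC box letters and the NRF1 letters. The Prpf8 stretch (chr11:75486615-75486815, plus strand) lies at a gene with one of the highest H2A.Z folds.
Snrpa: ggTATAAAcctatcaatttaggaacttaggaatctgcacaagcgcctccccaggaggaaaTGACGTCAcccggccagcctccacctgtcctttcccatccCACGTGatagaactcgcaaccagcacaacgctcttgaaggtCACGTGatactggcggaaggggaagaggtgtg
Hnrnpc: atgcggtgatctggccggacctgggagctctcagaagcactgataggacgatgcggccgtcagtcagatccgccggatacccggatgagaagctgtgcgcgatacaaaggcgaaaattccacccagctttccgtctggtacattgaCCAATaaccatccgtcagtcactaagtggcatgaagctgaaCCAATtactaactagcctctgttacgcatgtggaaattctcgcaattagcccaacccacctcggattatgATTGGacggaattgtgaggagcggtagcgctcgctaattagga
Hnrnpab: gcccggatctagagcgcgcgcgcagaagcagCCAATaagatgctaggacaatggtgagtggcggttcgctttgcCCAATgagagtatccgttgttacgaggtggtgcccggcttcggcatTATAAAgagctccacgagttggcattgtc
Srsf7: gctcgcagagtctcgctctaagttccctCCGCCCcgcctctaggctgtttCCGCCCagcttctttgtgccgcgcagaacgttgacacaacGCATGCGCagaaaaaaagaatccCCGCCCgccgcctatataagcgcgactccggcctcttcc
Prpf8: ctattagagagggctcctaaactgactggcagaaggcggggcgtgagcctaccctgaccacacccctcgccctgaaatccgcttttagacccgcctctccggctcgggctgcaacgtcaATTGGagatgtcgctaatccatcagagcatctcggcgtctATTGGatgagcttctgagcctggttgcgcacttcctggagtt

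Genes of the SR proteins had the lowest median H2A.Z fold of the 6 name groups in both genotypes. Their median highest fold was 6.34 over 9 genes in WT and 6.62 over 10 genes in Uhrf1hepKO, while over all protein-coding genes with a peak the medians were 7.31 and 7.44. ATACseq peaks were found at 4 of 11 Srsf genes in WT, where the background was 31.4% of all protein-coding genes and 49.2% of CpG-rich ones, and at 6 of 11 in Uhrf1hepKO (29.0% and 44.9%). Srsf6, whose product binds exonic enhancers, had the highest ATACseq fold of this group, 6.82 in WT (percentile 94.8 of its list) and 6.55 in Uhrf1hepKO (percentile 94.6), in a peak centred 215 and 217 bp upstream of the TSS. Srsf7 followed at 6.14 and 5.89 (percentiles 90.2 and 90.3). Srsf11 had 9 peaks over the 4 lists, the most of this group, and shares its upstream region with Lrrc40, whose TSS lies 23 bp away on the other strand. Srsf12 had no peak in the window in any list although 52 CpGs lie around its start. Srsf4 had an H2A.Z peak in Uhrf1hepKO only, with a fold of 4.18 and 17 reads at the summit (interval 9.90 to 27.2), 369 bp upstream of the TSS.

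Proteins of the Sm ring, the shared core of the snRNPs, come from Snrpb, Snrpd1, Snrpd2, Snrpd3, Snrpe, Snrpf and Snrpg. At their genes, the WT H2A.Z fold ran from 4.39 to 13.65. Snrpb had a fold of 13.65 in WT, level with Prpf8 as the highest at any splicing factor gene, with 55 reads at the summit, and 51 reads in Uhrf1hepKO. Snrpd1 followed in WT at 12.2, with 49 reads in each genotype, and its 5 WT peaks were the most at any of the 64 splicing factor genes. At the low end, Snrpd3 had a single WT peak with a fold of 4.39 and 17 reads (interval 9.90 to 27.2), 100 bp downstream of the TSS, and no peak in the Uhrf1hepKO list. Neither Snrpd1 nor Snrpd3 had an ATACseq peak. Snrpg had the third highest WT ATACseq fold, 6.84 (percentile 94.9), and a fold of 5.02 in Uhrf1hepKO (percentile 78.7). Snrpf had 11 peaks over the 4 lists, more than any other splicing factor gene, including an ATACseq peak 4406 bp upstream in WT and 4399 bp upstream in Uhrf1hepKO, in an intron of 4933408J17Rik.

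Among the Snrp genes that belong to 1 particle, Snrpa encodes a U1 protein that binds a stem-loop of U1 RNA. Its ATACseq peak had a fold of 8.26 in WT, at percentile 98.2 of its list, and 8.83 in Uhrf1hepKO, at percentile 98.8. H2A.Z at Snrpa had folds of 7.07 and 6.74, both under the medians of the splicing factor genes (8.29 and 7.90), and 28 reads in each genotype, 397 and 440 bp upstream of the TSS. Snrpc, another U1 gene, had the reverse pairing, with no ATACseq peak and H2A.Z folds of 10.7 and 10.9 (43 and 46 reads). The U2 genes Snrpa1 and Snrpb2 had strong H2A.Z, with folds of 11.2 and 9.51 in WT. Each had an ATACseq peak in 1 genotype, Snrpa1 in WT and Snrpb2 in Uhrf1hepKO.

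None of the 3 Sf3a genes had an ATACseq peak in either genotype, and 4 of the 6 Sf3b genes had none. The same was true of 63.5% of all protein-coding genes and 44.4% of CpG-rich ones. H2A.Z peaks were present at all 9 Sf3a and Sf3b genes in both lists (50.4% of all protein-coding genes and 72.7% of CpG-rich ones). Sf3a2 had the highest ratio of Uhrf1hepKO to WT H2A.Z reads of any splicing factor gene, with 34 reads in WT (interval 23.5 to 47.5) and 53 in Uhrf1hepKO (interval 39.7 to 69.3), and the intervals overlapped. With a fold of 12.55, it was level with Hnrnpc at the top of the Uhrf1hepKO values. Sf3b1, the subunit that contacts the branch point and is often mutated in blood cancers, had lower folds of 5.36 and 7.20, with 21 and 30 reads. Sf3b2 had 8 peaks over the lists, the most of these subunits, and its ATACseq folds were 5.26 in WT (percentile 77.4) and 3.67 in Uhrf1hepKO (percentile 32.1). Sf3b5 had ATACseq folds of 4.68 and 4.42 (percentiles 62.96 and 63.99), in peaks centred 3044 and 3076 bp downstream of the annotated start, within an exon of the gene.

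H2A.Z was high at many Prpf genes, as it was at Snrp genes. The median highest fold of the Prpf genes was 9.75 in WT and 8.13 in Uhrf1hepKO, over 13 of 13 genes in each. Snrp genes had medians of 9.51 and 10.3, and the Uhrf1hepKO median of the Sf3b genes was 8.83. H2A.Z peaks were present at 54.4% (WT) and 52.6% (Uhrf1hepKO) of all protein-coding genes, and at 76.7% and 74.5% of CpG-rich ones. Prpf8, the scaffold at the centre of the spliceosome, had a WT fold of 13.65 with 55 reads, and 49 reads in Uhrf1hepKO. The ATACseq peak of Prpf8 had a fold of 3.71 in WT (percentile 20.02) and 5.25 in Uhrf1hepKO (percentile 82.6). These folds are averages over peaks of unlike width, 340 bp in WT and 154 bp in Uhrf1hepKO. Prpf19, a ubiquitin ligase of the spliceosome, and Prpf39, a U1-associated protein, shared a fold of 12.3 (52 reads) in Uhrf1hepKO, and had 11.2 and 11.5 in WT. Prpf39 had an ATACseq peak in both genotypes and Prpf19 had none.

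Of the 6 groups, Hnrnp genes most often had an ATACseq peak, 15 of 19 in WT and 16 of 19 in Uhrf1hepKO. Prpf genes came close in WT, with 10 of 13, and had 8 of 13 in Uhrf1hepKO. The shares, WT first, were 31.4% and 29.0% of all protein-coding genes, and 49.2% and 44.9% of CpG-rich ones. All 19 Hnrnp genes had H2A.Z in both genotypes (50.4% of all protein-coding genes and 72.7% of CpG-rich ones). Hnrnpc, whose product binds uridine-rich stretches of nascent transcripts, was high in all 4 lists. Its ATACseq folds were 7.41 in WT and 8.31 in Uhrf1hepKO (percentiles 96.7 and 98.4), centred 192 and 207 bp upstream of the TSS, and its H2A.Z reads were 46 and 53. One of its Uhrf1hepKO H2A.Z peaks, at 1074 bp, was the widest H2A.Z peak at these genes. Hnrnpk, which binds cytidine-rich RNA, showed the opposite pairing, with ATACseq folds of 5.87 and 7.38 (percentiles 87.3 and 97.2) and the lowest WT H2A.Z fold of all genes with a peak, 4.14 with 16 reads, compared with 19 reads in Uhrf1hepKO. Hnrnpa1, a repressor of exon inclusion, had the widest ATACseq peak, 1099 bp in WT and 814 bp in Uhrf1hepKO, with low folds of 3.95 and 3.69 (percentiles 33.4 and 32.9). H2A.Z at Hnrnpa1 reached a fold of 12.2 in WT (49 reads), with 40 reads in Uhrf1hepKO. Hnrnpul2 had an ATACseq peak of 819 bp in Uhrf1hepKO, and Hnrnpa0, with the most CpGs at its start (156), had H2A.Z peaks of 928 bp in WT and 911 bp in Uhrf1hepKO. Hnrnpl, which binds CA repeats, had 5 H2A.Z peaks in Uhrf1hepKO, the most at any of the 64 genes in that list, and 3 in WT.

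**Figure D2:**
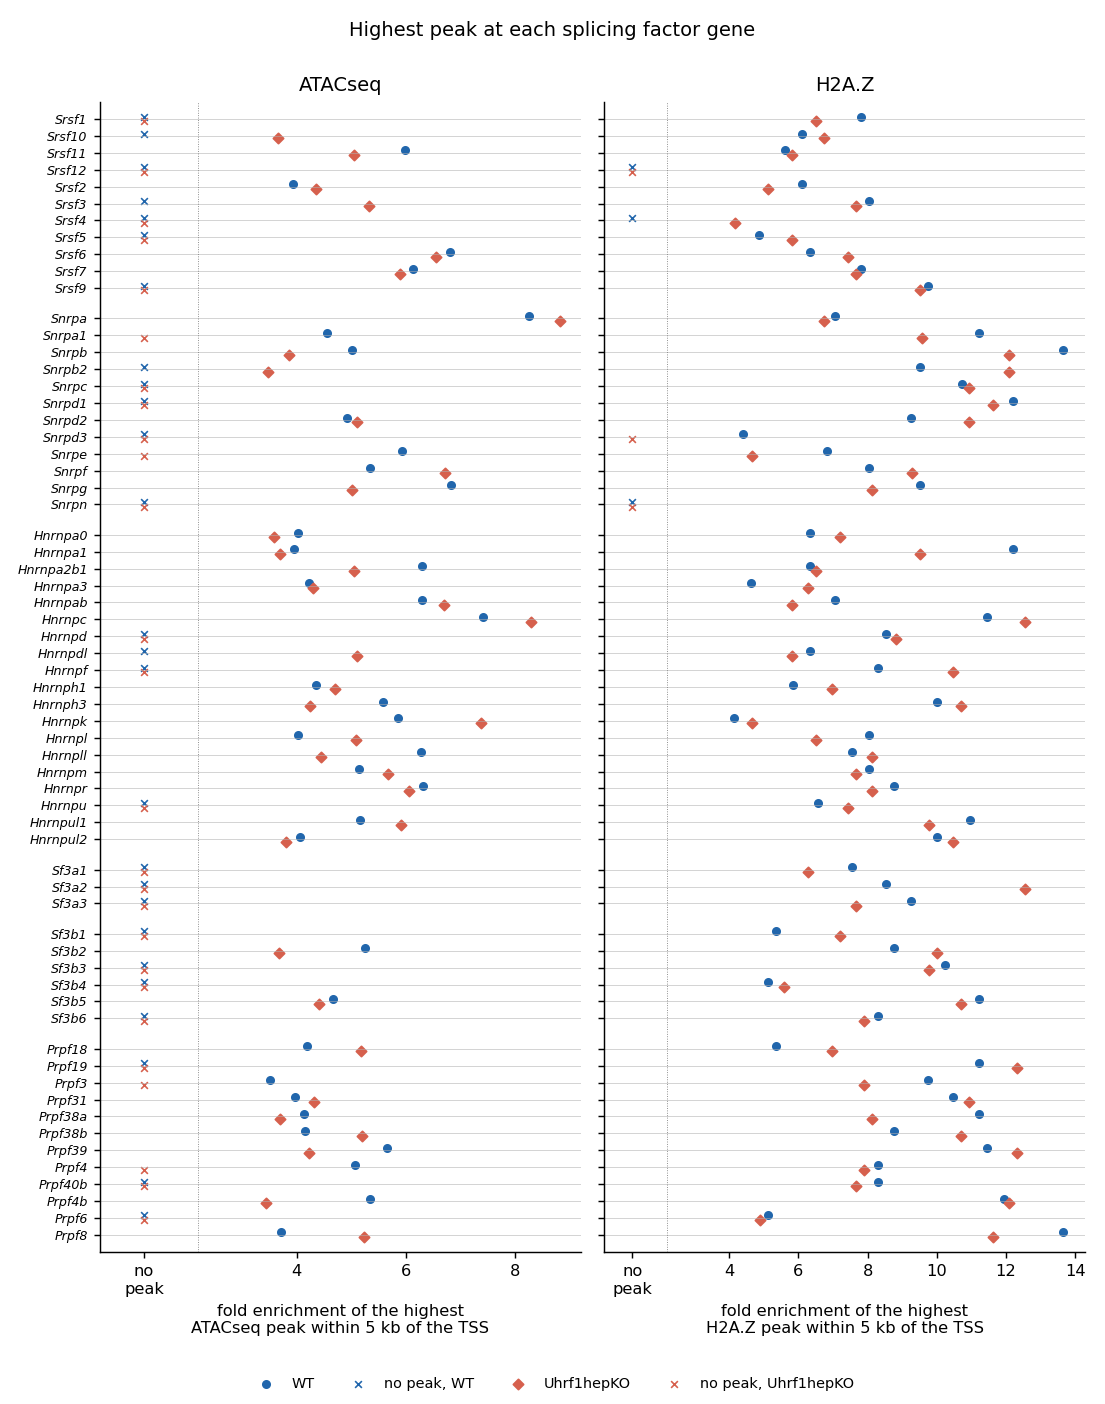
Fold enrichment of the highest peak within 5 kb of the TSS at 63 of the 64 genes, grouped by name, for ATACseq (left) and H2A.Z (right). Circles are WT, diamonds Uhrf1hepKO, and crosses mark genes with no peak in that list. All 3 Sf3a genes are without ATACseq peaks, and Snrpn and Srsf12 are without any peak.

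ATACseq peaks were found in both genotypes at 34 of the 64 genes (24.0% of all protein-coding genes), in WT only at 4 (background 7.44%), in Uhrf1hepKO only at 4 (background 5.07%) and in neither at 22 (background 63.5%). Among CpG-rich genes these 4 shares were 38.5%, 10.7%, 6.47% and 44.4%. At the 34 shared genes, the centres of the highest peaks lay within 100 bp of each other in 24. Position within the list was higher in Uhrf1hepKO at 20 of these genes and higher in WT at 14, and the median difference was 0.597 percentile points. The WT-only genes were Snrpe, Prpf4, Snrpa1 and Prpf3, with folds of 5.94, 5.07, 4.55 and 3.52. Prpf3 and Prpf4 encode partners in the U4/U6 snRNP, and their peaks were at percentiles 8.12 and 73.5 of the WT list. The Uhrf1hepKO-only genes were Srsf3, a regulator of exon inclusion and RNA export, Hnrnpdl, Srsf10 and Snrpb2, with folds of 5.34, 5.11, 3.66 and 3.48. Both sets thus held peaks near the bottom of their list as well as peaks well above its middle. H2A.Z peaks were present in both genotypes at all 8 genes.

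The stretch with the highest fold from each set is shown for these genes that differed in the lists. The WT-only stretch at Snrpe (chr1:133610337-133610410, minus strand) comes from a peak at percentile 88.2 of its list, and the Uhrf1hepKO-only stretch at Srsf3 (chr17:29032569-29032627, plus strand), with CCAAT box letters in capitals, from a peak at percentile 84.0.
Snrpe: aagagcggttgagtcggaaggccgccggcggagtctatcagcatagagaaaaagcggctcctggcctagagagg
Srsf3: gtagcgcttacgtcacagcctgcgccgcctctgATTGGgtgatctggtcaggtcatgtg

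H2A.Z peaks lay at nearly the same genes in both genotypes. They were found at 60 of 64 genes in both genotypes (background 50.4%), at Snrpd3 in WT only (background 3.99%), at Srsf4 in Uhrf1hepKO only (background 2.17%), and in neither genotype at Snrpn and Srsf12 (background 43.4%). Among CpG-rich genes these shares were 72.7%, 3.98%, 1.77% and 21.5%. Both peaks found in 1 genotype had 17 reads. For 57 genes the reads at the highest summit could be read from the fold steps in both lists. The medians were 33 in WT and 33 in Uhrf1hepKO, and the ratio of Uhrf1hepKO to WT had a median of 1.07 and was at most 1.56, at Sf3a2. Reads were higher in Uhrf1hepKO at 32 genes, lower at 17 and equal at 8. The share with higher reads was 56.1%, compared with 61.1% of all protein-coding genes and 60.7% of CpG-rich ones. These reads were not scaled for depth, and the background was 3.10 reads per base in WT and 3.30 in Uhrf1hepKO. The Poisson intervals were separate at 0 of 57 genes (background 0.0396%, 4 of 10090), and the median ratio over all protein-coding genes was also 1.07. Across the genes with a peak in both, Spearman's rho of the folds was 0.86 for H2A.Z (n = 60) and 0.52 for ATACseq (n = 34). These are descriptions across genes, which are not independent replicates and share a library. Peak by peak, 112 of 138 WT H2A.Z peaks at these genes overlapped a Uhrf1hepKO peak (81.2%, compared with 70.0% of the whole list), and 35 of 41 WT ATACseq peaks did so (85.4%, compared with 61.3%). In the WT lists, peaks without an overlap had median folds of 4.39 (H2A.Z) and 3.89 (ATACseq), against 5.12 and 4.30 for all peaks. The highest WT peaks at splicing factor genes had medians of 8.29 and 5.15, and the overlap shares were not matched for fold.

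**Figure D3:**
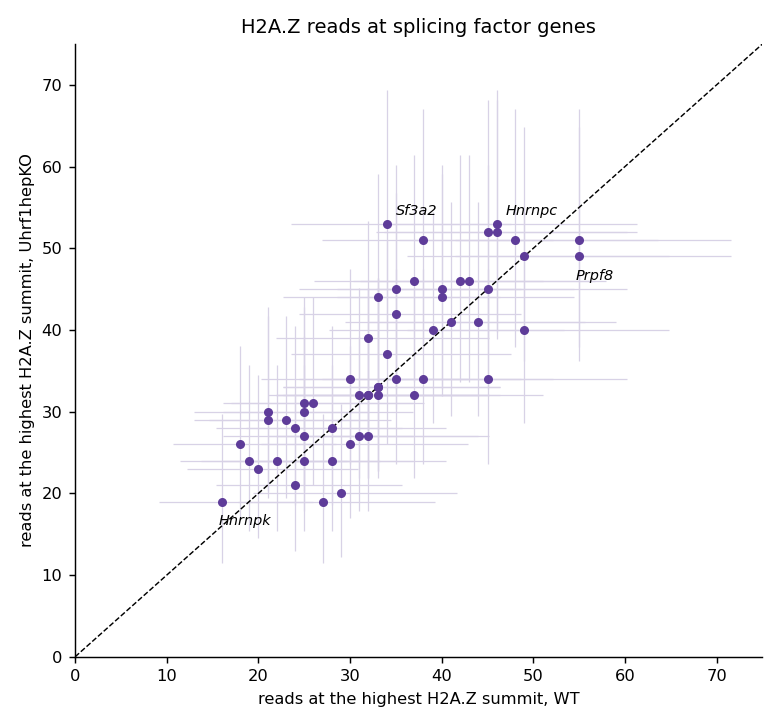
Reads at the highest H2A.Z summit of each of 57 splicing factor genes in WT (horizontal axis) and Uhrf1hepKO (vertical axis), with exact Poisson 95% intervals as bars and the line of equal reads dashed. The genes run from 16 reads at Hnrnpk to 55 at Prpf8 in WT, and all intervals overlap between genotypes.

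The highest ATACseq and H2A.Z peaks differed in how often they covered the TSS, although peaks of both assays often overlapped. The highest ATACseq peak overlapped an H2A.Z peak at 17 of 38 genes in WT (44.7%, compared with 48.2% of all protein-coding genes with a peak). In Uhrf1hepKO it did so at 15 of 38 (39.5%, compared with 41.4%). ATACseq peaks, called in broad mode, were wider (median 301 bp in WT, against 162 bp for H2A.Z), and the shares covering the TSS were not matched for width. The highest WT ATACseq peak covered the TSS at 23 of 38 genes (60.5%, compared with 59.4% of all protein-coding genes with a peak and 66.2% of CpG-rich ones), and its centre lay within 1 kb at 33. In Uhrf1hepKO the peak covered the TSS at 22 of 38 genes (57.9%, compared with 57.2% and 64.1%). The highest WT H2A.Z peak covered the TSS at 4 of 61 genes (6.56%, interval 2.58 to 15.7%, compared with 5.83% and 4.56%), and the highest Uhrf1hepKO peak at 7 of 61 (11.5%, interval 5.67 to 21.8%, compared with 5.72% and 4.52%). H2A.Z was highest upstream of the TSS at 44 of 61 genes in WT (72.1%) and 43 of 61 in Uhrf1hepKO (70.5%), as in CpG-rich genes generally (71.6% and 71.4%). Summits within 1 kb on both sides of the TSS were found at 26 genes in WT (background 23.7%, and 38.1% of CpG-rich genes) and 19 in Uhrf1hepKO (background 21.7%, and 34.5%). In WT, 25 further genes had a summit upstream only and 8 had one downstream only, and in Uhrf1hepKO these counts were 30 and 10. Where both sides had one, the upstream fold was higher at 19 of 26 genes in WT (73.1%, compared with 67.3% of all such genes) and at 13 of 19 in Uhrf1hepKO (68.4%, compared with 66.8%). At Prpf8 it was 13.65 upstream and 5.85 downstream, whereas Prpf4b, a kinase of the spliceosome, had 6.82 upstream and 11.9 downstream. The nearest summits on either side were a median of 436 bp apart in WT and 468 bp in Uhrf1hepKO, and over all such genes 530 and 536.5 bp. The ATACseq centre fell between them at 11 of 15 genes in WT (73.3%, compared with 84.6%) and 11 of 14 in Uhrf1hepKO (78.6%, compared with 84.3%).

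**Figure D4:**
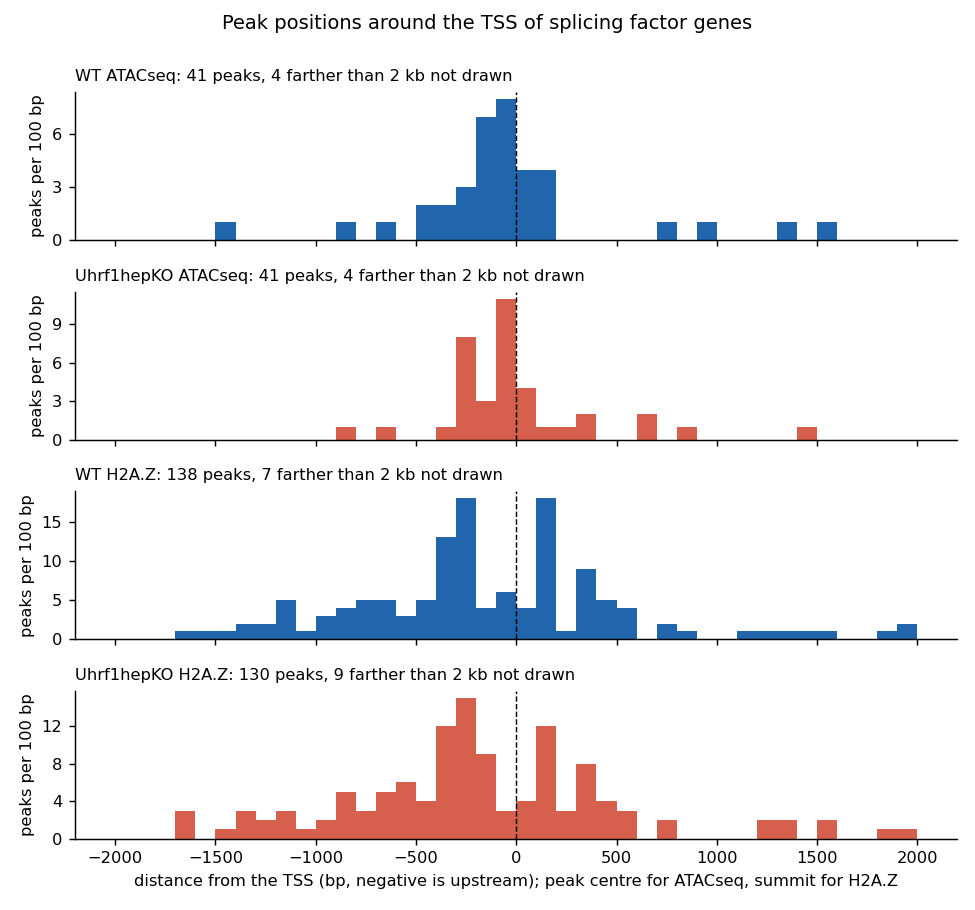
Number of peaks per 100 bp around the TSS of the 64 genes, by the centre of each ATACseq peak and the summit of each H2A.Z peak, in the 4 lists (WT blue, Uhrf1hepKO red). ATACseq peaks gather at and just upstream of the dashed TSS, and H2A.Z summits form a group on each side of it, with 66 upstream and 44 downstream within 1 kb in WT.

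The promoter sequence of the splicing factor genes was searched from 250 bp before to 50 bp after the TSS, on both strands, for 9 sets of letters. The CCAAT box letters (CCAAT) were found at 32 of 64 genes (interval 38.1 to 61.9%), against a background of 38.6% of all promoters and 37.7% of CpG-rich ones. Of these, 12 were among the 19 Hnrnp genes and 8 among the 13 Prpf genes. The ETS core (CCGGAAG) was found at 17 genes (26.6%, interval 17.3 to 38.5%, background 11.0%, and 17.8% of CpG-rich promoters) and the GC box (GGGCGG) at 37 genes (57.8%, interval 45.6 to 69.1%, background 43.7%, and 70.2%). The other 6 sets were each found at 8 genes or fewer, and the share of CpG-rich promoters follows the background. They were the TATA box (TATAAA, 8 genes, 12.5%, background 12.7%, and 6.0%), the E-box (CACGTG, 7 genes, background 7.82%, and 11.0%) and the YY1 letters (AAGATGGC, 3 genes, background 2.93%, and 4.36%). The NRF1 letters (GCATGCGC, background 3.45%, and 5.81%), the CRE (TGACGTCA, background 2.43%, and 3.75%) and the letters bound by ZBTB33 and BANP (TCTCGCGA, background 1.35%, and 2.45%) were found at 1 gene each. No 2 of these sets of letters contain one another. These are matches of letters and do not show that a factor binds.

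Several splicing factor genes lay close to another gene. Another protein-coding TSS was within 5 kb at 23 genes (35.9%, interval 25.3 to 48.2%, background 19.8%, and 26.7% of CpG-rich genes, which the interval includes). A divergent TSS lay within 1 kb upstream of 14 genes (21.9%, interval 13.5 to 33.4%, background 6.97%, and 12.1% of CpG-rich genes). The closest pairs were Srsf11 with Lrrc40 at 23 bp, Prpf31 with Tfpt at 56 bp and Sf3a1 with Ccdc157 at 57 bp, and Hnrnpa1 and Hnrnpa2b1 were paired with the heterochromatin protein genes Cbx5 (616 bp) and Cbx3 (466 bp). Peaks between such genes cannot be given to 1 of them. ATACseq peaks were found at 11 of these 14 genes in each genotype and H2A.Z at 14 of 14. Over all protein-coding genes the shares, WT first, were 31.4% and 29.0% for ATACseq and 54.4% and 52.6% for H2A.Z. Among CpG-rich genes they were 49.2%, 44.9%, 76.7% and 74.5%. Windows of paired genes also hold the neighbour's start, and the share over all such pairs was not counted. Among splicing factor genes without a divergent neighbour, the highest H2A.Z peak was upstream at 68.1% in WT and 70.2% in Uhrf1hepKO.

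At 8 genes the annotated 5′ end had fewer than 40 CpGs, and 6 of these had another annotated TSS with at least 40. Hnrnpm had 4 CpGs at its 5′ end and 74 at another annotated TSS 1441 bp downstream. Its ATACseq peaks were centred 1376 and 1435 bp downstream of the 5′ end, within 65 and 6 bp of an annotated TSS. Snrpa1 had 8 CpGs at the 5′ end and 73 at a TSS 1778 bp downstream, and Snrpc had 13 and 48, at 1934 bp. Their highest H2A.Z summits were 1156 and 1301 bp downstream in WT.

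Few splicing factor genes had a peak deep in the gene body, and neither these counts nor their backgrounds were adjusted for gene length. Short genes such as Hnrnpa0 (2678 bp), Srsf2 (3194 bp), Snrpd2 (3821 bp) and Sf3b5 (3841 bp) have no sequence beyond 5 kb from the TSS. Beyond 5 kb from the TSS, the gene held an ATACseq peak at 1 gene in WT (background 8.94%) and 2 in Uhrf1hepKO (background 9.36%), and an H2A.Z peak at 5 in WT (background 19.3%) and 3 in Uhrf1hepKO (background 18.3%). Among CpG-rich genes these 4 shares were 10.3%, 10.7%, 21.1% and 19.9%. Some of these peaks lay at other annotated starts. In Hnrnpf, the WT ATACseq peak had a fold of 3.93 and was centred 15 bp from a TSS 6525 bp into the gene, where 90 CpGs lie within 500 bp, and a Uhrf1hepKO peak with a fold of 3.93 lay 64 bp from it. A second Uhrf1hepKO ATACseq peak in Hnrnpf had a fold of 4.05 and was centred 5 bp from a TSS of 4933440N22Rik. In Prpf6, whose product bridges the U5 and U4/U6 snRNPs, the H2A.Z peaks with the highest folds in the gene body were 199 bp (WT, 31 reads) and 209 bp (Uhrf1hepKO, 32 reads) from an annotated TSS of Prpf6, while 2 of the 3 WT and 2 of the 4 Uhrf1hepKO peaks were nearest to a TSS of Samd10. Srsf4 had an ATACseq peak in an intron in Uhrf1hepKO, with a fold of 4.27 and 6827 bp from the nearest TSS. Srsf12 had 2 WT H2A.Z peaks in introns, with 18 and 16 reads.

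Snrpn encodes an Sm protein used mainly in neurons and is imprinted, with the promoter methylated on the maternal copy and active on the paternal one. The annotated gene (chr7:59982495-60140219, minus strand) starts at an upstream exon with 5 CpGs and no peak in any list within 5 kb. An internal TSS at 60005111, shared in its surroundings with Snurf, has 30 CpGs within 500 bp. H2A.Z peaks flanked it in both genotypes. The WT peak upstream of the internal TSS (chr7:60005201-60005468) had a fold of 6.58 with 26 reads (interval 17.0 to 38.1), and the Uhrf1hepKO peak there (chr7:60005209-60005309) had a fold of 4.88 with 20 reads (interval 12.2 to 30.9). On the other side, the peaks starting at 60004966 had 17 reads in each genotype. The intervals of the genotypes overlapped on both sides of the TSS, and neither ATACseq list had a peak in the gene. The upstream WT peak is printed whole, on the strand of the gene, since it is the strongest peak at a member that had none at its 5′ end, and capitals mark CCAAT box letters.
Snrpn: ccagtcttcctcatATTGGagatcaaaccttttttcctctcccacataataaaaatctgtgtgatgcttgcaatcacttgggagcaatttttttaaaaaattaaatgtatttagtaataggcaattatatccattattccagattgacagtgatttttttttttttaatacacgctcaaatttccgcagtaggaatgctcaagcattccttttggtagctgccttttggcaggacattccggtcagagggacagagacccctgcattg

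**Figure D5:**
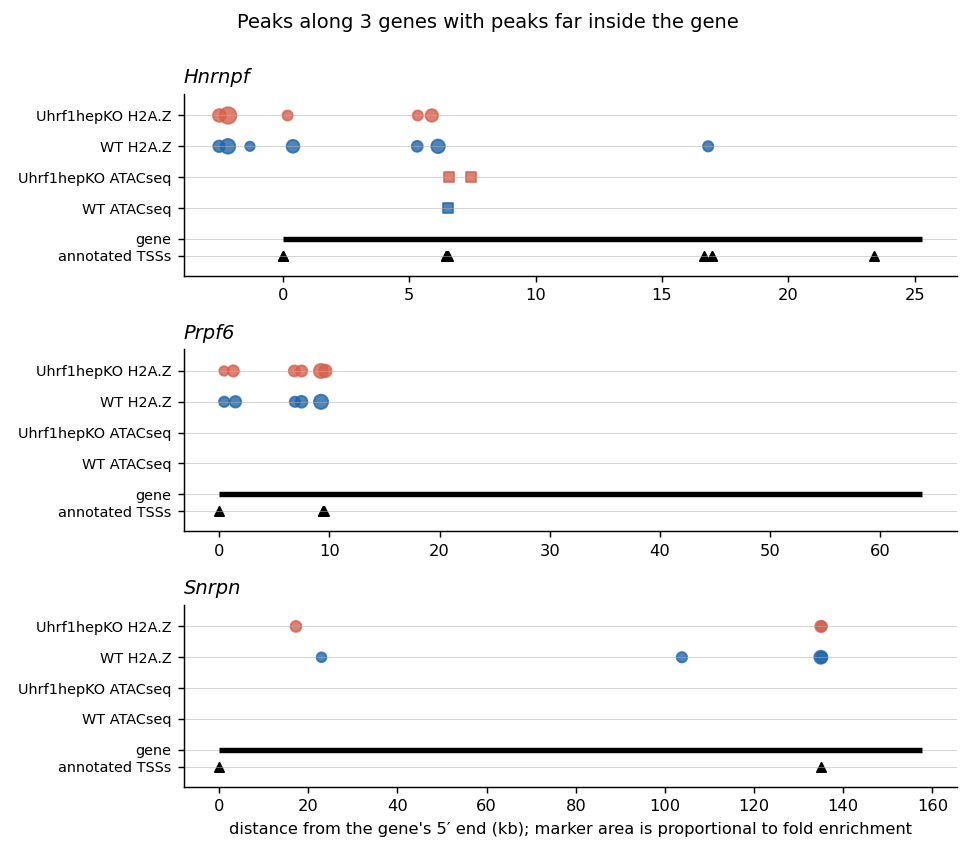
Peaks along Hnrnpf, Prpf6 and Snrpn by distance from the 5′ end of the gene (kb), with H2A.Z summits as circles, ATACseq centres as squares, WT in blue, Uhrf1hepKO in red, marker area proportional to fold, and annotated TSSs as triangles. The strongest peaks beyond 5 kb lie beside an internal TSS in Prpf6 and Snrpn, while others lie away from the drawn TSSs, such as the Prpf6 peaks nearest to Samd10.

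Splicing genes outside the name rule were counted in the same way. Of 44 further genes of the core spliceosome, among them Snrnp70, U2af1 and Eftud2, 30 had ATACseq peaks in WT (68.2%) and 27 in Uhrf1hepKO (61.4%), and 41 had H2A.Z in each (93.2%). The CpG-rich background was 49.2% and 44.9% for ATACseq and 76.7% and 74.5% for H2A.Z, and over all protein-coding genes the shares were 31.4%, 29.0%, 54.4% and 52.6%. Of 12 SR-related regulators and kinases, 6 and 5 had ATACseq peaks, close to the CpG-rich shares, and 11 and 10 had H2A.Z (91.7% and 83.3%). Of 15 splicing regulators used mainly in neurons, muscle or epithelia, 0 had an ATACseq peak in WT and 1 (Elavl3) in Uhrf1hepKO, and 3 and 4 had H2A.Z, all below the shares of all protein-coding genes. The median numbers of CpGs within 500 bp of the TSS were 68, 73 and 63 in these 3 lists.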

How the data were processed

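ATACseq and H2A.Z ChIPseq were each done on 1 WT and 1 Uhrf1hepKO liver. The authors aligned reads to GRCm38.p4 with BWA-MEM, processed them with PICARD and ran MACS2 on each library to call peaks (version not given in the sources used here), in broad mode for ATACseq. The submitters' processing notes also name Trimmomatic and FastQC 0.11.5. The deposited lists give each peak a display score, a fold, which is a ratio of pileup to background (averaged over the region for ATACseq, at the summit for H2A.Z), and −log10 p- and q-values. The fold ranks peaks here, and the score was not analysed further. Nothing is scaled between libraries, and neither a control library nor a shift of the ATACseq reads for the Tn5 cut is given in the sources used here.

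Genes and TSSs were from GENCODE vM21, and sequence was from the RefSeq GRCm38.p6 FASTA, which has the same chromosome coordinates. MACS2 writes a fold as reads plus 1 over background plus 1, so reads were recovered from the fold steps of H2A.Z, on which 93.9% (WT) and 91.5% (Uhrf1hepKO) of peaks lay within 0.02 steps. For ATACseq, whose folds are averages, reads were not recovered. The genes and lists were chosen with earlier results of these data known. Named genes were the 3 with the highest fold and the 1 with most peaks in each list, those with peaks in no list or in 1 genotype, those with most gene body peaks, those with most peaks in each name group, Snrpn, and those with the widest peaks. Some others were named after their values were seen, as examples of a role, an internal TSS or a divergent neighbour. One gene is counted but not reported here. Windows, peak subsets, overlaps, TSSs and neighbours were each varied. On simulated data, 200 of 200 genes with a planted peak were found. Python 3.11.15, pandas 2.3.3, scipy 1.17.1, pysam 0.24.0 and matplotlib 3.10.9 were used.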

Additional observations from a re-analysis of the deposited data

How the results depend on the processing

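No paired analysis was possible because each group has 1 library and no comparison rests on a test. Of 76 recomputed main values, 57 stayed within their counting interval or within 1.5 times, and 19 did not. Asking for 50% of the peak in the window, or taking equal numbers of peaks per assay, left every value unchanged. All values recomputed under these settings are among the 57. The shares over all genes were not recounted under the varied settings, so the values below cannot be set against the backgrounds given above. Using only the peaks whose fold reached the list median lowered the share of genes with ATACseq peaks to 40.6% in WT and 45.3% in Uhrf1hepKO, and with Uhrf1hepKO H2A.Z to 85.9%. It also gave 17 (WT) and 11 (Uhrf1hepKO) genes with H2A.Z on both sides of the TSS, 9 genes with ATACseq in Uhrf1hepKO only, and 4 (WT) and 2 (Uhrf1hepKO) genes with H2A.Z in 1 genotype only, with 0 (WT ATACseq) and 3 (WT H2A.Z) in the gene body. With a window of 1 kb, the gene body, which then begins at 1 kb, held ATACseq peaks at 5 genes in WT and 6 in Uhrf1hepKO and H2A.Z at 9 and 8, and H2A.Z was found in Uhrf1hepKO only at 2 genes. Among the 41 genes with no other protein-coding TSS in the window, 14 (WT) and 8 (Uhrf1hepKO) had H2A.Z on both sides and 0 had it in WT only. The first 2 of these counts are lower partly because fewer genes were counted, since as shares they were 34.1% and 19.5%, against 40.6% and 29.7% of the 64 genes. The median number of CpGs was 23 in the shorter window of the promoter search. From 500 bp before to 100 bp after the TSS, NRF1, YY1 and E-box letters were found at 2, 7 and 11 genes, and the other 6 sets stayed within 1.5 times. Counting any annotated TSS added Hnrnpf to both ATACseq lists and Snrpn to both H2A.Z lists.

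The spread between mice is unknown. Signal too low to be called is absent from these data, so a gene found in 1 genotype only is a statement about these libraries.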
